A study of Mus musculus with 4 samples.

Results

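DnaJ proteins, also called J proteins or Hsp40 proteins, are the co-chaperones that bring clients to Hsp70 chaperones. The genes described here are those whose symbol is Dnaja, Dnajb or Dnajc followed by a number, with or without 1 further letter, apart from pseudogene symbols and 1 gene not analysed here. They number 44 of the 49568 gene symbols in the deposited table, and 33 of the 44 passed the filter for testing, among 10860 tested genes of the whole table. The series profiled RNA from purified migrasomes (2 libraries) and from cytosol (2 libraries), all of mouse origin. Migrasomes are membrane-bound organelles that grow on the retraction fibres of migrating cells and are left behind by them. The sources used here do not give the cell type, its genotype or any treatment, so neither group can be described as a model beyond its fraction name.

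The deposited values are read counts per gene after division by a library's size factor, as the authors made them, and are called normalised read counts here. The libraries held 5228713 and 5171092 reads in migrasome replicates 1 and 2, against 7529136 and 8608369 reads in cytosol replicates 1 and 2. The value of 1 read was 1.41 and 1.32 in the migrasome libraries and 0.776 and 0.686 in the cytosol libraries. Differences are those of log2(value + 1), migrasome minus cytosol, given with their standard error (SE), a scale that understates the change of low genes. They were tested with limma over all 10860 genes, adjusted by the Benjamini-Hochberg method, and a gene with an adjusted p under 0.05 is said to have risen or fallen. Whether replicates are separate cultures is not stated in the labels, and the p-values therefore cover no more than the spread of these libraries, which may be technical. A value is relative to the other genes of its library and not an amount per vesicle. Fewer vesicles carrying an mRNA and less of it per vesicle therefore cannot be told apart.

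Hsp70 chaperones bind and release unfolded proteins in a cycle driven by ATP. A J domain, through its conserved His-Pro-Asp motif, stimulates the ATP hydrolysis step, and the rest of the J protein sets where in the cell and on which client this happens. Each compartment has its own Hsp70 (Hspa8 in the cytosol and nucleus, Hspa5 or BiP in the endoplasmic reticulum, ER, and Hspa9 in the mitochondrial matrix) and its own J proteins. The mRNAs of proteins that enter the ER are in general translated by ribosomes on the ER membrane, whereas those of cytosolic proteins are translated on free ribosomes. The members were sorted by the known location of the encoded protein into 19 cytosolic, 3 nuclear, 11 ER (4 lumenal and 7 of the membrane), 6 mitochondrial and 4 vesicle or endosomal genes. Dnajc22, a multi-pass membrane protein of less certain location, was kept apart. The location is less certain for several other members too, and counts without these are given below.

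Coding sequences are shown for the J domain motif and for the start of the protein. The His-Pro-Asp motif was found in 43 of the 44 members, all but Dnajb13, a protein of cilia and sperm flagella. It is shown for an ER and a cytosolic member, as 51 coding bases with the His-Pro-Asp codons in capitals (GENCODE M21 transcripts, GRCm38, 5′ to 3′).
Dnajb11: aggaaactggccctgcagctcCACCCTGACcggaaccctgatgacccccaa
Dnaja1: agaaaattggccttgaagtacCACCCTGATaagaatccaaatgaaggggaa
The first 75 coding bases are shown for 3 ER lumenal members, whose proteins start with a signal peptide, and then for 3 cytosolic members and 1 mitochondrial member. Capitals mark codons with T at their second position, which encode Phe, Leu, Ile, Met or Val.
Dnajb11: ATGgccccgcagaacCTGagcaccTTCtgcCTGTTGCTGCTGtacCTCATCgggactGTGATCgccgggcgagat
Dnajb9: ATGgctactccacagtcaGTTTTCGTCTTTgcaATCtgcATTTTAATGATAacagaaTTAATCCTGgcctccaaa
Dnajc3: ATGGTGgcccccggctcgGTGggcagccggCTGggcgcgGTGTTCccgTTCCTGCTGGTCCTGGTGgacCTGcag
Dnaja1: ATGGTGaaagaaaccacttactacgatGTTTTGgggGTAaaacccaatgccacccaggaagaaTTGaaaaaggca
Dnajb1: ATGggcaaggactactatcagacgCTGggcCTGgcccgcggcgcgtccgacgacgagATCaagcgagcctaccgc
Dnajc2: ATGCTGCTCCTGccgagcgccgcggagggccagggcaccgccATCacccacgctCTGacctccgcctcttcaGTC
Dnaja3: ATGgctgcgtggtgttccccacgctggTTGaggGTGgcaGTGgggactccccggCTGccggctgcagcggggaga
The ER lumenal sequences hold 11, 13 and 13 such codons in the order shown, and many of them are adjacent. The cytosolic ones hold 6, 4 and 7, and that of Dnaja3, which starts with a mitochondrial targeting sequence, holds 5. Over all 43 genes whose start was read, the number was 11 to 13 in the 4 ER lumenal and 4 to 8 in the 19 cytosolic genes, but it did not separate the other classes. It was 3 to 14 in 6 ER membrane genes, 4 to 12 in the 6 mitochondrial, 4 to 10 in the 3 nuclear and 5 to 7 in the 4 vesicle or endosomal genes, and 11 in Dnajc22.

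The DnaJ genes divided by compartment in migrasome against cytosol. Of the 33 tested members, 10 fell and 1 rose, against 17.7% of all tested genes that fell and 8.68% that rose, and 22 did not pass. All 10 that fell encode proteins of the ER or, in the case of Dnajc22, of another membrane, and the gene that rose is cytosolic. Of the 10 tested ER members, 9 fell, with a median log2 difference of -1.47. Of the 12 tested cytosolic members 1 rose and 0 fell (median 0.27), and of the 5 tested mitochondrial members 0 passed (median 0.18), while the median of all tested genes was -0.0043. Both migrasome libraries lay below both cytosol libraries for 13 of the 33 members and above them for 9, against 36.3% and 33.3% of all tested genes. The exact permutation test of 1 gene cannot go below p = 0.33 with 2 libraries against 2, so each call draws on the spread of all genes together. Restricting the classes to members of sure location left 8 of 9 ER genes that fell, 1 of 11 cytosolic genes that rose and 0 of 4 mitochondrial genes past the threshold.

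**Figure D1:**
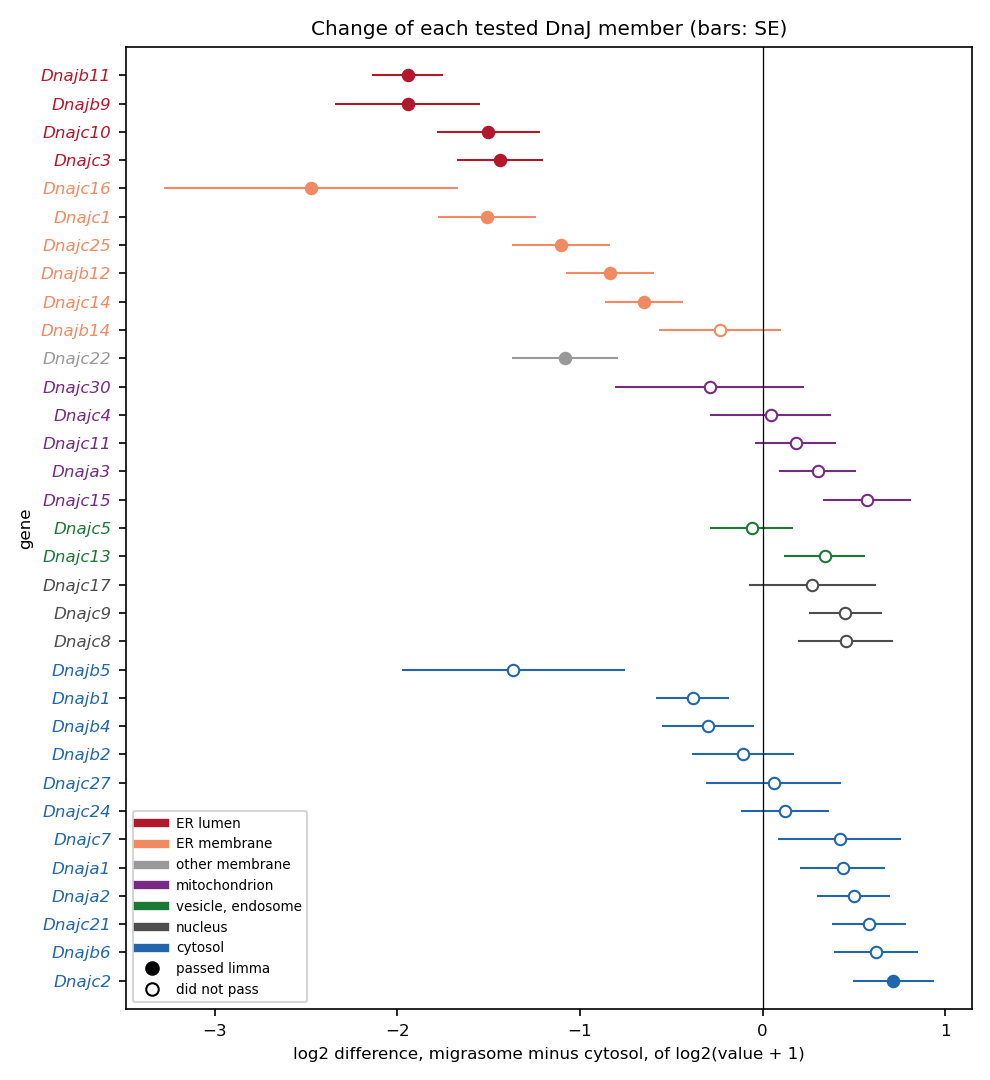
Log2 difference (migrasome minus cytosol, of the normalised read count plus 1) of each of the 33 tested DnaJ genes, coloured by the compartment of the protein; bars are SE and filled points passed the limma test. The ER genes lie left of 0, from -2.47 for Dnajc16 to -0.23 for Dnajb14, and the mitochondrial genes between -0.29 and 0.57.

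All 4 ER lumenal members fell. Dnajb11 (ERdj3), a BiP co-chaperone that binds unfolded clients and lies at chr16:22857845-22879634 on the plus strand (GRCm38), stood at 311 and 329 in migrasome replicates 1 and 2, against 1222 and 1244 in cytosol replicates 1 and 2. The groups did not overlap, and the replicates of each lay close together. On the log2 scale this was -1.94 ± 0.20 (SE, limma adjusted p = 0.00049), and the brackets that follow give the same quantities. Dnajb9 (ERdj4), a BiP co-chaperone that represses the stress sensor Ire1, had 19.8 and 48.7 in migrasome and 130 and 116 in cytosol (-1.94 ± 0.40, limma adjusted p = 0.0069). Dnajc10 (ERdj5), which reduces disulfide bonds of misfolded proteins, had 390 and 707 in migrasome and 1346 and 1646 in cytosol (-1.50 ± 0.28, limma adjusted p = 0.0043). In both genes migrasome replicate 2 was the higher of its pair, without reaching the cytosol libraries. Dnajc3 (p58IPK), a BiP co-chaperone with TPR repeats, had 280 and 391 in migrasome and 1007 and 800 in cytosol (-1.44 ± 0.24, limma adjusted p = 0.0022). Dnajb9, Dnajb11, Dnajc3 and Dnajc10 passed the threshold in each of 15 alternative settings, left-out libraries included.

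Of the 6 tested ER membrane members, 5 fell, by less in the median (-0.97) than the lumenal members (-1.72). The difference between the medians was not tested. Dnajc1 (ERdj1), whose J domain lies in the lumen, had 62.2 and 93.4 in migrasome against 210 and 228 in cytosol. It fell by 1.51 ± 0.27 on the log2 scale (limma adjusted p = 0.0034), and it passed in each of the 15 alternative settings. Dnajc25 (ERdj7), a multi-pass membrane protein, had 62.2 and 86.9 in migrasome and 149 and 170 in cytosol (-1.10 ± 0.27, limma adjusted p = 0.016). These groups did not overlap, but leaving out cytosol replicate 2 ended the call (limma adjusted p = 0.118), as did quantile normalization (limma adjusted p = 0.0610). Dnajb12, with its J domain facing the cytosol, had 106 and 140 in migrasome and 213 and 222 in cytosol (-0.83 ± 0.24, limma adjusted p = 0.031). Dnajc14, a multi-pass ER membrane protein, had 296 and 367 in migrasome and 496 and 541 in cytosol (-0.65 ± 0.21, limma adjusted p = 0.048). Both genes lay lower in migrasome without overlap, and both calls were lost without migrasome replicate 1 or either cytosol library, with limma adjusted p between 0.0638 and 0.283. In all, Dnajb12 lost its call in 7 and Dnajc14 in 8 of 15 alternatives. Exons of Dnajc14 share 1114 bases with those of Ormdl2 on the opposite strand, and exons of Dnajc1 share 749 with those of Mllt10. Mllt10 had a mean value of 219 over the 4 libraries, against 148 for Dnajc1. No source used here gives the strand setting, so reads from the shared bases of either pair cannot be told apart if it was not used.

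Dnajc16 (ERdj8) had the lowest difference of the family and also the least certain one. It stood at 2.83 and 34.2 in migrasome, which are 2 and 26 reads, and at 71.4 and 56.2 in cytosol. It fell by 2.47 ± 0.81 on the log2 scale (limma adjusted p = 0.047). Without migrasome replicate 1 the difference was -0.87 and the call was lost (limma adjusted p = 0.0671). It was lost in 7 of 14 alternatives in all, the others being a pseudocount of 0.5, no filter, the same total, quantile normalization, no variance trend and DESeq2 (-1.76, DESeq2 adjusted p = 0.360). Dnajb14, the paralog of Dnajb12, was the tested ER member that did not pass, at 84.9 and 176 in migrasome and 154 and 134 in cytosol. Its groups overlapped, with migrasome replicate 1 the lowest and migrasome replicate 2 the highest library (-0.23 ± 0.33, limma adjusted p = 0.62), and without migrasome replicate 1 the sign turned, to 0.29. Dnajc22, outside these classes, fell as well, with 45.3 and 55.3 in migrasome and 90.8 and 126 in cytosol (-1.08 ± 0.29, limma adjusted p = 0.024). Leaving out cytosol replicate 2 ended that call (limma adjusted p = 0.255), as did quantile normalization and no filter.

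**Figure D2:**
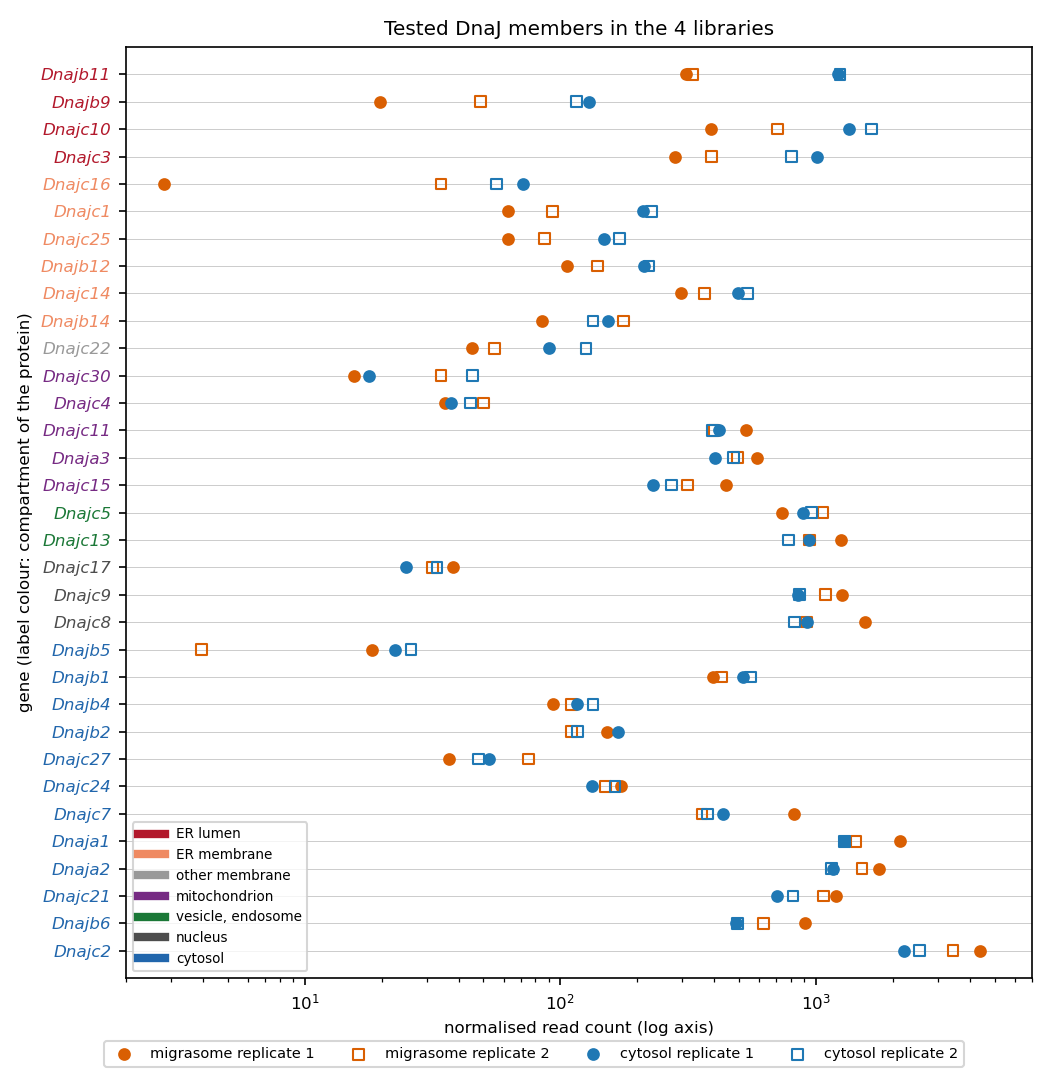
Normalised read count (log axis) of each of the 33 tested DnaJ genes in the 4 libraries, with gene names coloured by the compartment of the protein. Migrasome points (orange) lie left of cytosol points (blue) for all 4 ER lumenal genes, and the widest gap within a group is that of Dnajc16, at 2.83 and 34.2 in migrasome.

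Among the cytosolic members, Dnajc2 rose and 0 fell. At an unadjusted p under 0.05 limma called 4 of the 12 higher and 0 lower, against 17.4% and 24.2% of all tested genes. After adjustment edgeR called 1 higher and 0 lower, against 9.86% and 19.0% of all genes, and DESeq2 called 3 higher and 0 lower, against 10.5% and 14.7%. Dnajc2 (Mpp11, the homolog of yeast zuotin), a J protein of the ribosome-associated complex that meets nascent chains at the ribosome exit, had 4394 and 3439 in migrasome and 2208 and 2535 in cytosol. It lies at chr5:21757267-21785251 on the minus strand (GRCm38). Its groups did not overlap (0.72 ± 0.22, limma adjusted p = 0.039). The call was lost without migrasome replicate 1 (limma adjusted p = 0.0682), without cytosol replicate 1 (0.303), without cytosol replicate 2 (0.156), with every library scaled to the same total (0.44, limma adjusted p = 0.107) and with quantile normalization (0.26, limma adjusted p = 0.270). It was lost in 7 of the 15 alternatives in all, the other two being no filter and no variance trend.

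The other abundant cytosolic members did not pass. Over the 12 tested cytosolic members, both migrasome libraries lay above both cytosol libraries for 5, Dnajc2 included. They lay below for 3, and the groups overlapped for 4. Over all tested genes the shares were 33.3% above and 36.3% below. Dnaja2, a partner of Hspa8 in refolding, had 1764 and 1516 in migrasome and 1165 and 1147 in cytosol (0.50 ± 0.20, limma adjusted p = 0.088). Its relative Dnaja1 had 2135 and 1436 in migrasome and 1291 in each cytosol library (0.44 ± 0.23, limma adjusted p = 0.18). In both genes the migrasome libraries were higher without overlap, but those of Dnaja1 were wide apart. Processed pseudogenes up to 99.4% identical to the Dnaja1 coding sequence are listed in the annotation, so its count is uncertain by what they may take. Exons of Dnaja1 also share 608 bases with those of Smu1 on the opposite strand, with the same limit as given for Dnajc14. Dnajc21, which acts late in the maturation of the large ribosomal subunit, had 1201 and 1070 in migrasome and 704 and 813 in cytosol (0.58 ± 0.20, limma adjusted p = 0.057). Dnajb6, a suppressor of polyglutamine aggregation that also has near-identical pseudogenes, had 909 and 625 in migrasome and 487 and 492 in cytosol (0.62 ± 0.23, limma adjusted p = 0.070). Dnajb6 and Dnajc21 passed with DESeq2 on the recovered reads and with 3 other settings each. Dnajc7, a TPR protein that passes clients between Hsp70 and Hsp90, had 822 and 358 in migrasome and 434 and 377 in cytosol, so that its 2 migrasome libraries were the highest and the lowest of the 4.

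The remaining tested cytosolic members did not pass either. Dnajb1, the classical heat-inducible Hsp40, had 396 and 426 in migrasome and 518 and 555 in cytosol (-0.38 ± 0.20, limma adjusted p = 0.18). Both migrasome libraries were the lower ones, and the gene passed as lower only with every library scaled to the same total (limma adjusted p = 0.0392). Its paralogs Dnajb4 and Dnajb5 had differences of -0.30 (limma adjusted p = 0.39) and -1.36 (limma adjusted p = 0.12). Dnajb5 was at 18.4 and 3.95 in migrasome, the second of which is the value of 3 reads, and at 22.5 and 26.1 in cytosol. Dnajb2, Dnajc24 and Dnajc27 had differences between -0.11 and 0.12, and in each the groups overlapped.

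The nuclear and mitochondrial members did not pass in either direction. Dnajc9, a co-chaperone of histones H3 and H4, had 1270 and 1088 in migrasome and 853 and 863 in cytosol (0.45 ± 0.20, limma adjusted p = 0.11). The spliceosome-associated Dnajc8 had 1557 and 919 in migrasome and 921 and 826 in cytosol (0.45 ± 0.26, limma adjusted p = 0.21). Only Dnajc9 had groups that did not overlap, while Dnajc17, also of the spliceosome, stood at 24.8 to 38.2 over the 4 libraries. Of the mitochondrial members, Dnaja3 (Tid1), the matrix partner of Hspa9, had 590 and 494 in migrasome and 403 and 475 in cytosol (0.30 ± 0.21, limma adjusted p = 0.30). Dnajc15, an inner membrane protein at the import motor, had 444 and 315 in migrasome and 231 and 273 in cytosol (0.57 ± 0.24, limma adjusted p = 0.10). These 2 of the 5 tested mitochondrial genes had both migrasome libraries above both cytosol libraries, as did 33.3% of all tested genes. Dnajc11, an outer membrane partner of the cristae-organising complex, had 532 and 399 in migrasome against 418 and 394 in cytosol, and Dnajc4 and Dnajc30 were below 51 in every library, all 3 with overlap. At an unadjusted p under 0.05, limma called 1 of 5 mitochondrial genes (Dnajc15) and 1 of 3 nuclear genes (Dnajc9), both higher in migrasome. Over all tested genes it called 17.4% higher and 24.2% lower at that threshold. After adjustment edgeR and DESeq2 called 0 of either class.

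The vesicle and endosomal members did not pass. Dnajc5, the palmitoylated cysteine string protein of secretory vesicles, had 740 and 1066 in migrasome and 894 and 959 in cytosol (-0.06 ± 0.23, limma adjusted p = 0.86). Dnajc13 (Rme-8), which acts on early endosomes, had 1253 and 944 in migrasome and 943 and 782 in cytosol (0.34 ± 0.22, limma adjusted p = 0.27). The cytosol libraries lay between the migrasome ones for Dnajc5, and for Dnajc13 the lower migrasome and the higher cytosol library were almost equal. Without migrasome replicate 2 Dnajc13 passed as higher (0.54, limma adjusted p = 0.045). At an unadjusted p 0 of the 2 passed in limma, and 0 did with edgeR or DESeq2.

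The 11 members below the filter gave no test. Dnajb3, Dnajb7, Dnajb8, Dnajc5b and Dnajc5g had no read in any library, which leaves values of up to 4.24 and 3.95 in the migrasome libraries and 2.33 and 2.06 in the cytosol libraries (3 reads, counting error only). Several of these are known as testis-enriched genes. Dnajb13 and Dnajc12 had 1 read each, in cytosol replicate 2. Dnaja4, a paralog of Dnaja1, had 2.83 and 5.26 in migrasome and 1.55 and 1.37 in cytosol. Dnajc6 (auxilin), which uncoats clathrin in neurons, had 7.07 and 2.63 in migrasome and 2.33 and 1.37 in cytosol. Dnajc18 and Dnajc28 were at 2.33 or lower in each library. No ratio is drawn from these values, which lie around the floor.

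The composition of the family's reads shifted accordingly, a measure that does not depend on the scaling between libraries. DnaJ genes held 0.274% and 0.251% of all reads in the migrasome libraries and 0.293% and 0.300% in the cytosol libraries. Of the DnaJ reads, ER members took 7.99% (exact 95% binomial interval 7.55 to 8.44) and 13.9% (13.3 to 14.5) in migrasome replicates 1 and 2, against 29.2% (28.6 to 29.8) and 29.2% (28.6 to 29.7) in cytosol replicates 1 and 2. The share averaged 10.9% ± 4.17 in migrasome and 29.2% ± 0.0077 in cytosol (SD, n = 2 each). Migrasome replicate 2 had the larger ER share of its pair, and both were below both cytosol libraries. Cytosolic members took 59.8% and 54.6% of the DnaJ reads in migrasome and 42.6% and 43.6% in cytosol, or 57.2% ± 3.70 and 43.1% ± 0.66. Mitochondrial members took 7.99% and 7.55% in migrasome and 6.47% and 6.98% in cytosol, a mean of 7.77% ± 0.31 against 6.72% ± 0.36. A share of the family's reads rises for 1 class when it falls for another, so the cytosolic and mitochondrial shares are not separate evidence. The intervals cover counting error only and leave out the spread between libraries. They also treat each read as an independent molecule, and no molecular identifiers were used here to check that.

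**Figure D3:**
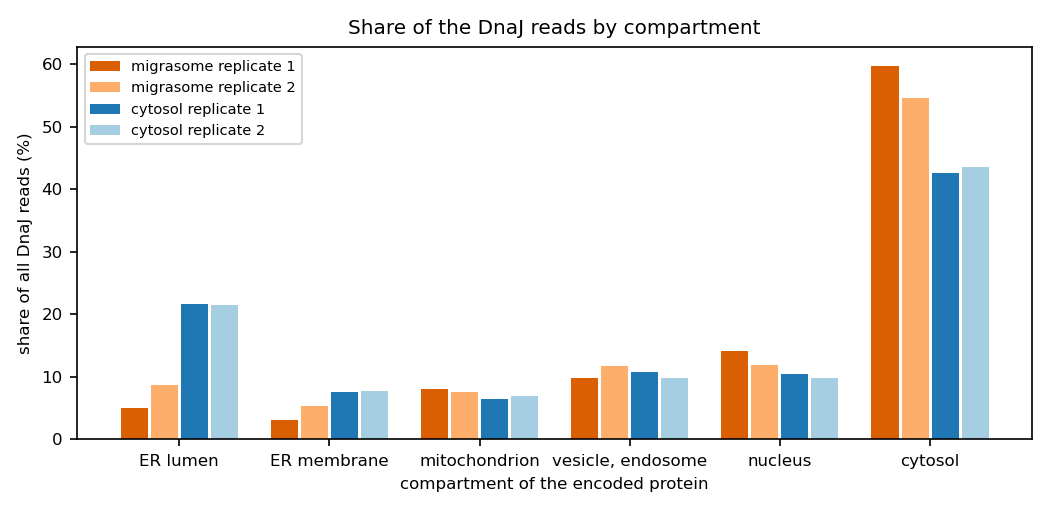
Share of all DnaJ reads (%) held by the genes of each compartment in migrasome replicates 1 and 2 (orange) and cytosol replicates 1 and 2 (blue). ER lumenal genes held 4.95% and 8.63% in migrasome and 21.6% and 21.5% in cytosol, and cytosolic genes 59.8% and 54.6% in migrasome and 42.6% and 43.6% in cytosol.

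The order of the members by level per kb of exon changed in the same way. Dnajc2 ranked first and Dnaja2 second in both fractions, at means of 779 and 551 per kb in migrasome and 472 and 389 per kb in cytosol. Dnajb11 ranked 14 of the 33 in migrasome (98.9 per kb) and 3 in cytosol (381 per kb). Dnajc10 ranked 13 in migrasome and 6 in cytosol. Dnajc3 ranked 16 in migrasome and 7 in cytosol. These ranks are of mean levels and were not tested. The exon length is that of all annotated exons of a gene together, and not of a single transcript. For Dnaja1 it was 8629 bases against 3376 in the transcript whose coding sequence was used, and for Dnaja2 2975 against 2919. The ranks therefore depend on the annotation, and an order by transcript length was not drawn up.

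The protein sequence feature that went with the differences was a hydrophobic stretch, taken as a window of 19 residues with a mean Kyte-Doolittle hydropathy of at least 1.6 in the translated coding sequence. Of the 17 tested DnaJ genes with such a stretch, 10 fell and 0 rose (median -0.83), and of the 16 without one, 0 fell and 1 rose (median 0.36). With edgeR 10 with a stretch fell, with DESeq2 8, and neither tool called a fall among those without. The position of the stretch divided the genes further. All 7 tested DnaJ genes whose first stretch began within 30 codons of the start fell (Dnajb9, Dnajb11, Dnajc1, Dnajc3, Dnajc10, Dnajc16 and Dnajc25, median -1.51). Of the 10 whose first stretch began later, Dnajb12, Dnajc14 and Dnajc22 fell (median -0.15), and the 7 others were Dnajb14, Dnajc4, Dnajc5, Dnajc11, Dnajc13, Dnajc15 and Dnajc30. The same order held over the tested genes with a coding sequence as a whole. There 63.6% of the 1102 genes with an early stretch fell (median -1.34), against 29.6% of the 1935 with a later one (median -0.29) and 7.54% of the 6960 without (median 0.13). The medians of the DnaJ genes were close to those of all genes with the same feature, and no difference between them was tested. The feature overlaps with the classes by location, so the 2 descriptions are not independent.

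**Figure D4:**
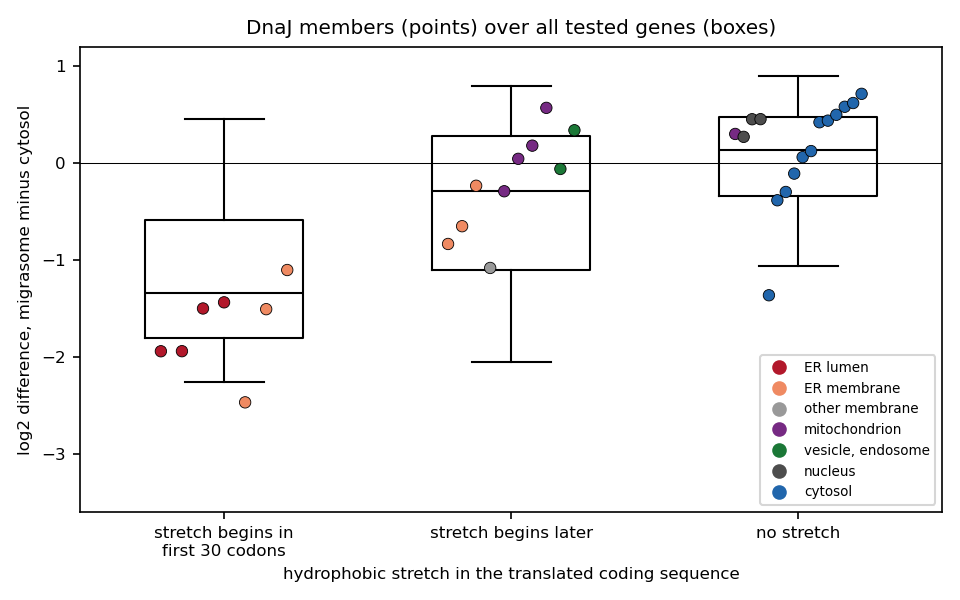
Log2 difference (migrasome minus cytosol) of the 33 tested DnaJ genes (points, coloured by compartment) over boxes for all tested genes with a coding sequence, by whether a hydrophobic stretch of 19 residues begins in the first 30 codons, later or not at all. Boxes show quartiles and whiskers the 5th and 95th percentiles; the medians over all genes are -1.34, -0.29 and 0.13, and the DnaJ medians -1.51, -0.15 and 0.36.

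Genes of the Hsp70 machines that the J proteins serve showed the largest differences in the ER as well. For that compartment, all 4 tested genes fell, namely BiP itself (Hspa5), Hspa13 and the exchange factors Sil1 and Hyou1, with a median of -1.99. Hspa5 had 3780 and 4639 in migrasome and 21290 and 13138 in cytosol (-2.00 ± 0.28, limma adjusted p = 0.0010). In the cytosolic list of Hsp70s, exchange factors and other Hsp70 or Hsp90 co-chaperones, 4 of 17 tested genes rose and 0 fell (median 0.40). These were Hspa8 (0.81), the exchange factor Hspa4 (0.75), Stip1 (0.89), which links Hsp70 to Hsp90, and Bag6 (0.93). Bag6 was counted among the exchange factors without a check of that role. Over all tested genes 8.68% rose and 17.7% fell. The call was lost in 6 of 15 alternatives for Hspa4, in 4 for Bag6 and in 3 for Stip1. Each of these losses included the fit without cytosol replicate 2, at 0.83 for Hspa4, 0.65 for Bag6 and 0.96 for Stip1 (limma adjusted p = 0.167, 0.22 and 0.0810). With quantile normalization the difference of Hspa4 was 0.21 (limma adjusted p = 0.364). Hspa8, the constitutive cytosolic Hsp70, had 21577 and 18682 in migrasome and 10684 and 12227 in cytosol, without overlap (limma adjusted p = 0.038). Its call was lost in 6 of 15 alternatives. These were either cytosol library left out, the same total per library, no filter, no variance trend (limma adjusted p between 0.0527 and 0.370) and quantile normalization, where the difference was 0.11 (limma adjusted p = 0.651). Hspa14, which forms the ribosome-associated complex with Dnajc2, had 1199 and 867 in migrasome and 779 and 829 in cytosol and did not pass (0.34 ± 0.22, limma adjusted p = 0.26). For mitochondria, Hspa9 rose, with 16152 and 11318 in migrasome and 7036 and 7110 in cytosol (0.93 ± 0.25, limma adjusted p = 0.025). Leaving out either cytosol library ended that call (limma adjusted p = 0.180 and 0.185), as did quantile normalization (0.26, limma adjusted p = 0.315), no filter and no variance trend, and the exchange factors Grpel1 (0.47) and Grpel2 (-0.57) did not pass.

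Of 3 J proteins that carry other names, Sec63, the J protein of the ER translocation channel, fell. It had 197 and 204 in migrasome and 557 and 399 in cytosol (-1.23 ± 0.23, limma adjusted p = 0.0046). Leaving out cytosol replicate 1 ended that call (limma adjusted p = 0.0589). The clathrin-uncoating kinase Gak (0.08) and the mitochondrial iron-sulfur protein Hscb (0.29) did not pass.

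**Figure D5:**
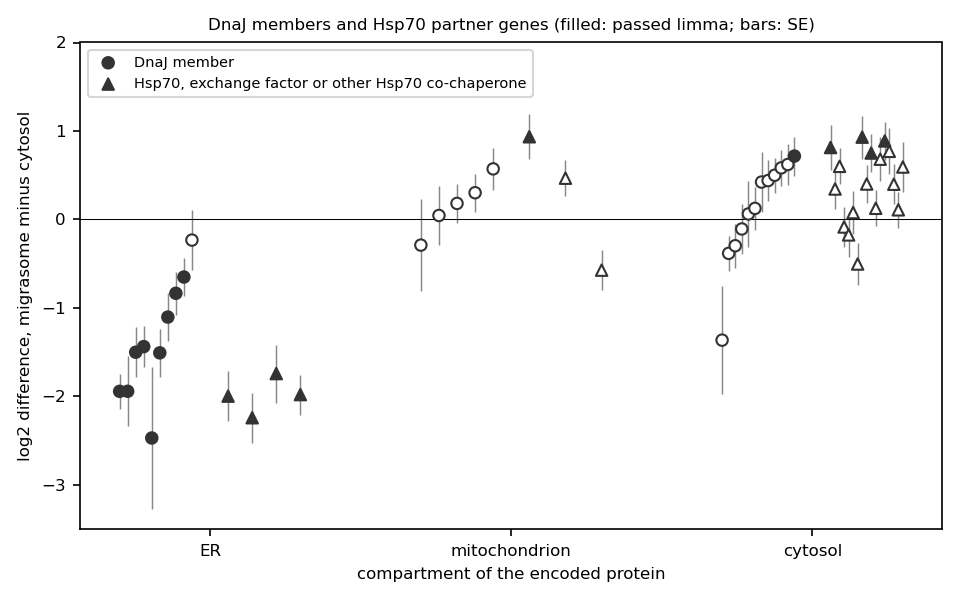
Log2 difference (migrasome minus cytosol) of tested DnaJ genes (circles) and of Hsp70 genes, exchange factors and other co-chaperones (triangles) by compartment of the protein; bars are SE and filled symbols passed the limma test. The ER genes of both kinds lie below 0, with medians of -1.47 for DnaJ genes and -1.99 for partners, and the cytosolic medians are 0.27 and 0.40.

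Spread and composition of the libraries touch these values. The SD over the 33 members of the log2 difference between replicates was 0.88 in migrasome and 0.32 in cytosol, against 0.58 and 0.38 over all tested genes. Tested ER members were higher in migrasome replicate 2 than in replicate 1 throughout. Members outside the ER went both ways. Dnaja1, Dnajb6, Dnajc7 and Dnajc8 were among those higher in migrasome replicate 1, and Dnajb1, Dnajb4, Dnajc5 and Dnajc27 among those higher in replicate 2. Over all 33 members, 16 were higher in migrasome replicate 1 and 17 in replicate 2. The RNAs of nuclear-retained genes were present in both fractions. Malat1 stood at 5102 and 3882 in migrasome and 10534 and 5593 in cytosol (limma adjusted p = 0.084). Rn7sk fell (-2.94), with 6647 and 12733 in migrasome and 69225 and 71563 in cytosol. Of 5 such genes, 4 were tested, Neat1 and Kcnq1ot1 included. For all 4, both migrasome libraries lay below both cytosol libraries, as did 36.3% of all tested genes. Leukocyte and endothelial markers stayed under 7 in each library for all 12 genes and epithelial ones under 14 for all 6. Of 10 fibroblast markers, 5 fell and Vim rose, while Thy1 did not pass and Dcn, Lum and Fap were below the filter. The summed values were 35526 and 29379 in migrasome and 30942 and 24919 in cytosol. Vim alone made up 33076 and 26052 of these in migrasome and 16385 and 14221 in cytosol, so the sums do not describe the other markers. Those that fell encode secreted or membrane proteins (Col1a1, Col1a2, Col3a1, Pdgfra and Pdgfrb). The part of such composition in the DnaJ differences was not tested.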

How the data were processed

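RNA from purified migrasomes and from cytosol was sequenced in 2 libraries each. Per the submitters' processing notes, cutadapt, Trimmomatic, FastQC, STAR, HTSeq and DESeq were used with the build GRCm38; the sources used here name no gene annotation or strand setting. The deposited signal of a gene is its read count after the authors' division by a size factor of each library. Dividing by the value of 1 read gave whole reads for 100% of the values, within a tolerance of 0.001.

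Genes that reached a value of 10 in 2 or more libraries were tested on log2(value + 1) with limma 3.58.1 in R 4.3.3 (eBayes with a trend, no replicate block, Benjamini-Hochberg adjustment). The test was tried on simulated counts with the same dispersion in both groups. In the data the log2 SD between replicates was 0.58 in migrasome and 0.38 in cytosol. That trial therefore does not cover the unequal spread. Since the values are normalised, count models served only as alternatives: edgeR 4.0.16 and DESeq2 1.42.0 were applied to these reads. Other alternatives changed the pseudocount, filter, scaling and variance trend, or left out a library. Counts differed beyond sampling noise between the migrasome libraries (chi-square per degree of freedom 27.9) and between the cytosol libraries (17.6). Positions, exon lengths and coding sequences came from GENCODE M21 (GRCm38), found for all 44 members. All members may be named; per-library values are given for those past the threshold or with a mean of at least 500, and for some lower ones chosen after their values were seen. Locations were assigned from general knowledge. The members and gene lists were chosen with earlier results of these data known. Figures were drawn with matplotlib 3.10.9.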

Additional observations from a re-analysis of the deposited data

How the results depend on the processing

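The falls of Dnajb9, Dnajb11, Dnajc1, Dnajc3 and Dnajc10 passed in all 15 alternatives, and 0 of the 10 called falls changed sign. The count that rose was the fragile one, over all tested genes as well as among members. Of the 10860 tested genes, 943 rose in the main fit, 322 with the same total and 2600 with medians set equal. In the settings given next, the count of members that rose moved in the same direction as that of all genes, except with quantile normalization (1194 genes). It was 0 with no filter, the same total, quantile normalization or no variance trend, 8 with medians set equal, 3 with DESeq2 and 0 to 10 with a library left out (10 without migrasome replicate 2). For cytosolic members it was 0 in the same 4 settings, 5, 3 and 0 to 6. Members that fell numbered 6 with no filter, 5 with quantile normalization (ER members 5) and 6 to 11 with a library left out (6 without cytosol replicate 2; ER members 6 to 10). A single cytosolic member fell with the same total (0 to 1 with a library left out), and 1 mitochondrial member rose with medians set equal (0 to 1 with a library left out). Scaling moved the median of all tested genes to -0.27 (same total), 0.11 (quantile) or 0.26 (medians equal). Relative to that median, the class median stayed between -1.70 and -0.97 for ER members, between 0.09 and 0.45 for cytosolic and between 0.18 and 0.42 for mitochondrial members over the alternatives, while single members lay outside these ranges. The mitochondrial median reversed to -0.091 with the same total, where it stayed above the median of all genes. The ER median ranged from -1.74 to -0.97 with a library left out, the smallest fall being that without migrasome replicate 1.

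Over all genes, those that rose numbered 393 with no filter, 322 with the same total, 2600 with medians equal, 483 with no trend and 231 to 2085 with a library left out, and those that fell 1147 to 2800. Whether same-numbered libraries are paired is not stated in the labels. The deviation of replicate 1 from its group mean correlated at 0.23 between the groups over the 10860 tested genes. With the replicate block 1802 genes rose, and among members 4 rose (3 cytosolic, 1 mitochondrial) and 1 cytosolic member fell. Per kb of exon, ER members held 27.9% and cytosolic members 41.5% of the family in cytosol, and mitochondrial members 6.78% in migrasome and 5.99% in cytosol.

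The sign of genes that did not pass turned in these cases, and the cause was not tested. With the same total, Dnajc11 was -0.091, Dnajc24 -0.15, Dnajc27 -0.20, Dnajc4 -0.22 and Gak -0.20. With quantile normalization, Dnajb14 was 0.11, Dnajb2 0.21, Dnajb4 0.062 and Dnajc30 0.054. With medians equal, Dnajb14 was 0.032, Dnajb2 0.16 and Dnajc5 0.21. With each library left out in turn, the difference ranged from -0.76 to 0.29 for Dnajb14, from -0.37 to 0.16 for Dnajb2, from -0.026 to 0.39 for Dnajc11 and from -0.027 to 0.28 for Dnajc24. It ranged from -0.44 to 0.57 for Dnajc27, from -0.94 to 0.36 for Dnajc30, from -0.20 to 0.29 for Dnajc4 and from -0.32 to 0.20 for Dnajc5. It ranged from -0.18 to 1.02 for Dnajc7, from -0.023 to 0.18 for Gak and from -0.32 to 0.89 for Hscb. A left-out library leaves 1 sample in its group, which is then assumed to vary like the other group. Depth limits the members under the value of 3 reads, for which no difference was detectable.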

Other observations

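Transcript length and GC content were set beside the calls. The 10 DnaJ genes that fell had transcripts of 1564 to 5969 bases (median 4033) with a median GC content of 46.9%, and the 22 tested members that did not pass had transcripts of 840 to 9477 bases (median 2489) with a median of 48.1%. The ranges overlap, and no test was made of either.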
